A study of Homo sapiens with 5 samples.

Results

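Expression of 10 genes was followed in MHH-ES-1 cells, a human line long established from Ewing sarcoma, after transfection of microRNA mimics. The genes are EGR1, EGR3, FOS, FOSB, FOSL1, FOSL2, JUN, JUNB and IER2, which belong to the immediate early response, and SRF, the transcription factor that drives much of it. They were chosen by name, with earlier results of these data known. Every probe set that the platform annotation lists for a member alone was taken, which gave 20 of the 54675 probe sets on the array. On the same annotation 19775 genes have a probe set of their own. The mimics, short RNA duplexes that supply a chosen microRNA to the cell, carried miR-483-5p (2 arrays), miR-483-3p (1 array) or a scrambled sequence as control (2 arrays). All groups received a duplex at 50 nM with the same lipid reagent, in one cell line, and RNA was taken 48 h later. The second array of each pair is labelled a repeat, and whether its cells were cultured separately is not stated. The p-values therefore reflect variation among these arrays alone, and that may be technical.

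Immediate early genes are switched on within minutes of a growth factor or stress signal, without new protein synthesis, and their messengers are short-lived. SRF binds a DNA element called the CArG box together with ternary complex factors, which the ERK kinase activates, or with myocardin-related factors, which respond to free actin. EGR proteins are zinc finger transcription factors, while FOS and JUN proteins pair through leucine zippers to form the dimer AP-1. SRF has been reported as a target of miR-483-5p in endothelial cells.

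The promoter windows of EGR1, SRF and FOS are shown for these reasons. A probe set of each of these 3 genes stood apart from the control with both mimics, as described below. The windows also differ in the CArG boxes that lie within them. Windows run from 250 bases before to 50 bases after the start of the gene, as RefSeq gives them for GRCh38.p14, and 8 of the 10 genes matched that table. EGR1 lies at chr5:138465229-138465528, SRF at chr6:43171019-43171318 and FOS at chr14:75278578-75278877, all on the plus strand. Capitals mark CArG boxes (10 bases) and the motif TGACG (5 bases), the core of the element bound by CREB and ATF factors, read on both strands.
EGR1: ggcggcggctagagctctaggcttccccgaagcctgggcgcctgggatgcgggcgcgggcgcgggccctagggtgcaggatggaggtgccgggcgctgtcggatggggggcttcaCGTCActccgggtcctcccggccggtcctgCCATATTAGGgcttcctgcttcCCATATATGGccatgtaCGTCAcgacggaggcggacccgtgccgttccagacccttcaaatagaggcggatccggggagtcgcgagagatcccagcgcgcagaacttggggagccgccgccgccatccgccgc
SRF: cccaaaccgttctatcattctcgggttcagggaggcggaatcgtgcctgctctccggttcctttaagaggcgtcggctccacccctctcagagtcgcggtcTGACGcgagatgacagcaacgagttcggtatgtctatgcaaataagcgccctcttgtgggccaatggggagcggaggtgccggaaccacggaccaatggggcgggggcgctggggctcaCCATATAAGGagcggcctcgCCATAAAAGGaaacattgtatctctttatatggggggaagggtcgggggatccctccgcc
FOS: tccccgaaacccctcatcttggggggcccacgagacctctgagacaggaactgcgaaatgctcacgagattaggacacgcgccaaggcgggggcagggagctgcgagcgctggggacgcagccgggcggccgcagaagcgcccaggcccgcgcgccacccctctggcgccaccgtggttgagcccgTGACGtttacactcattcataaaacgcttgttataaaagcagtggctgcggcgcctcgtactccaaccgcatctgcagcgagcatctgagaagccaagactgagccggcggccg

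The EGR1 window holds 2 CArG boxes, at positions -105 to -96 and -83 to -74 from the start, and the SRF window holds 2, at -30 to -21 and -10 to -1. No CArG box was found in the windows of FOS, FOSB, FOSL2, JUN, JUNB or IER2. The same held for a second SRF window that starts farther downstream. Bases outside the windows were not searched, so a gene without a box here may have one farther from its start. Of 35116 such windows across the genome, 1.29% hold a CArG box. TGACG was found in at least 1 window of each of the 8 genes, against 24.6% of all windows. The AP-1 motif TGANTCA was found for FOSL2 alone (7.71% of all windows), and the EGR motif GCGNGGGCG for EGR1 and SRF (9.43% of all windows). The motifs did not overlap one another in the windows of EGR1, SRF and FOS. These matches describe the letters of the windows and were not tested for binding.

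Values are linear intensities per probe set, and differences were taken on the log2(signal + 32) scale, where changes of dim probe sets come out too small. Median signals were 39.2 and 44.9 with miR-483-5p, 41.9 with miR-483-3p, and 44.4 and 43.2 in control arrays, all arrays scaled to one mean. For GAPDH, the 3' probe set over the 5' one, a ratio that grows as RNA degrades, gave 1.09 and 1.10 with miR-483-5p, 1.06 with miR-483-3p and 1.02 and 0.996 on control arrays. This ratio separated mimic from control arrays in the same way as EGR1, FOS and SRF below, and its part in those results was not tested. The Ewing sarcoma markers were bright on every array, with CD99 between 4381.4 and 5092.5. The summed signal of all 9 was 16766 and 14975 with miR-483-5p, 16517 with miR-483-3p and 17946 and 18315 on control arrays. The leukocyte marker PTPRC lay between 5.9 and 19.7, and no marker was at 0 on any array. The sum of 5 epithelial markers was 111 and 105, 119, and 176 and 128 in the same order of groups, and that of 4 fibroblast markers was 1402 and 1371, 1048, and 1283 and 1263. The sum of 3 leukocyte markers lay between 37.6 and 84.9 and that of 3 endothelial markers between 168.0 and 199.9. The part of these sums in the results was not tested. In such bulk RNA, fewer cells that express a gene and less RNA per cell cannot be told apart.

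EGR1, which couples growth signals to transcription, was lower with both mimics in all 3 of its probe sets. Its brightest probe set, 227404_s_at, had a signal of 129.7 and 134.3 in the miR-483-5p arrays, 84.0 in the miR-483-3p array and 343.2 and 303.9 on control arrays. The groups did not overlap, and the arrays of each repeated group lay close together beside the gap between the groups. The group values were 132 ± 3.25 with miR-483-5p and 324 ± 27.8 on control arrays (SD, n = 2 each). The log2 difference was -1.11 (SE 0.15) for miR-483-5p and -1.61 (SE 0.19) for miR-483-3p, each against the control. These are differences of 2.16-fold and 3.06-fold on this scale. The limma p-values were the 10th lowest of 32768 probe sets for miR-483-5p and the 2nd lowest for miR-483-3p, but adjusted over all of them they were 0.495 and 0.712, so EGR1 did not pass the threshold of 0.05. The 2 comparisons share their control arrays.

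With 1 probe set per gene together with median centring, a pseudocount of 100 or an intensity trend, alternatives chosen after seeing the data, EGR1 was called in both comparisons. The adjusted p was then 0.0141 to 0.0222 for miR-483-5p and 0.0154 to 0.0360 for miR-483-3p, and over all 18 alternatives it ran from 0.0141 to 0.892 and from 0.0154 to 0.998. Averaging the 3 EGR1 probe sets gave -0.59 for miR-483-5p and -0.95 for miR-483-3p.

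The dimmer EGR1 probe sets gave the same order of groups with smaller gaps. Probe set 201694_s_at had 139.2 and 99.4 with miR-483-5p, 93.0 with miR-483-3p and 175.5 and 181.6 on control arrays, with log2 differences of -0.49 (SE 0.18) and -0.75 (SE 0.22) for the 2 mimics. For miR-483-5p it was -0.68 from the repeat array alone and -0.30 from the other alone. Probe set 201693_s_at had 93.9 and 99.3, 72.3, and 118.3 and 109.0 in the same order, with log2 differences of -0.18 (SE 0.15) and -0.48 (SE 0.19). In each of the 3 the miR-483-3p array lay lowest and both control arrays highest. The 3 probe sets read 1 gene on the same arrays and are not independent observations.

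EGR3 is a close relative of EGR1 that is itself induced by growth signals. Its single probe set had 29.6 and 42.6 with miR-483-5p, 11.6 with miR-483-3p and 40.7 and 27.1 on control arrays. The miR-483-5p and control arrays overlapped, and the miR-483-3p array lay below all 4. The log2 difference from the control was 0.05 (SE 0.19) for miR-483-5p and -0.59 (SE 0.23, adjusted p = 0.849) for miR-483-3p. For miR-483-3p it was -1.44 with a pseudocount of 1 and -0.26 with 100. Probe sets with a mean signal below 27.2 were not tested, EGR3 lay close to that level, and how far it stands above background is unknown.

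**Figure D1:**
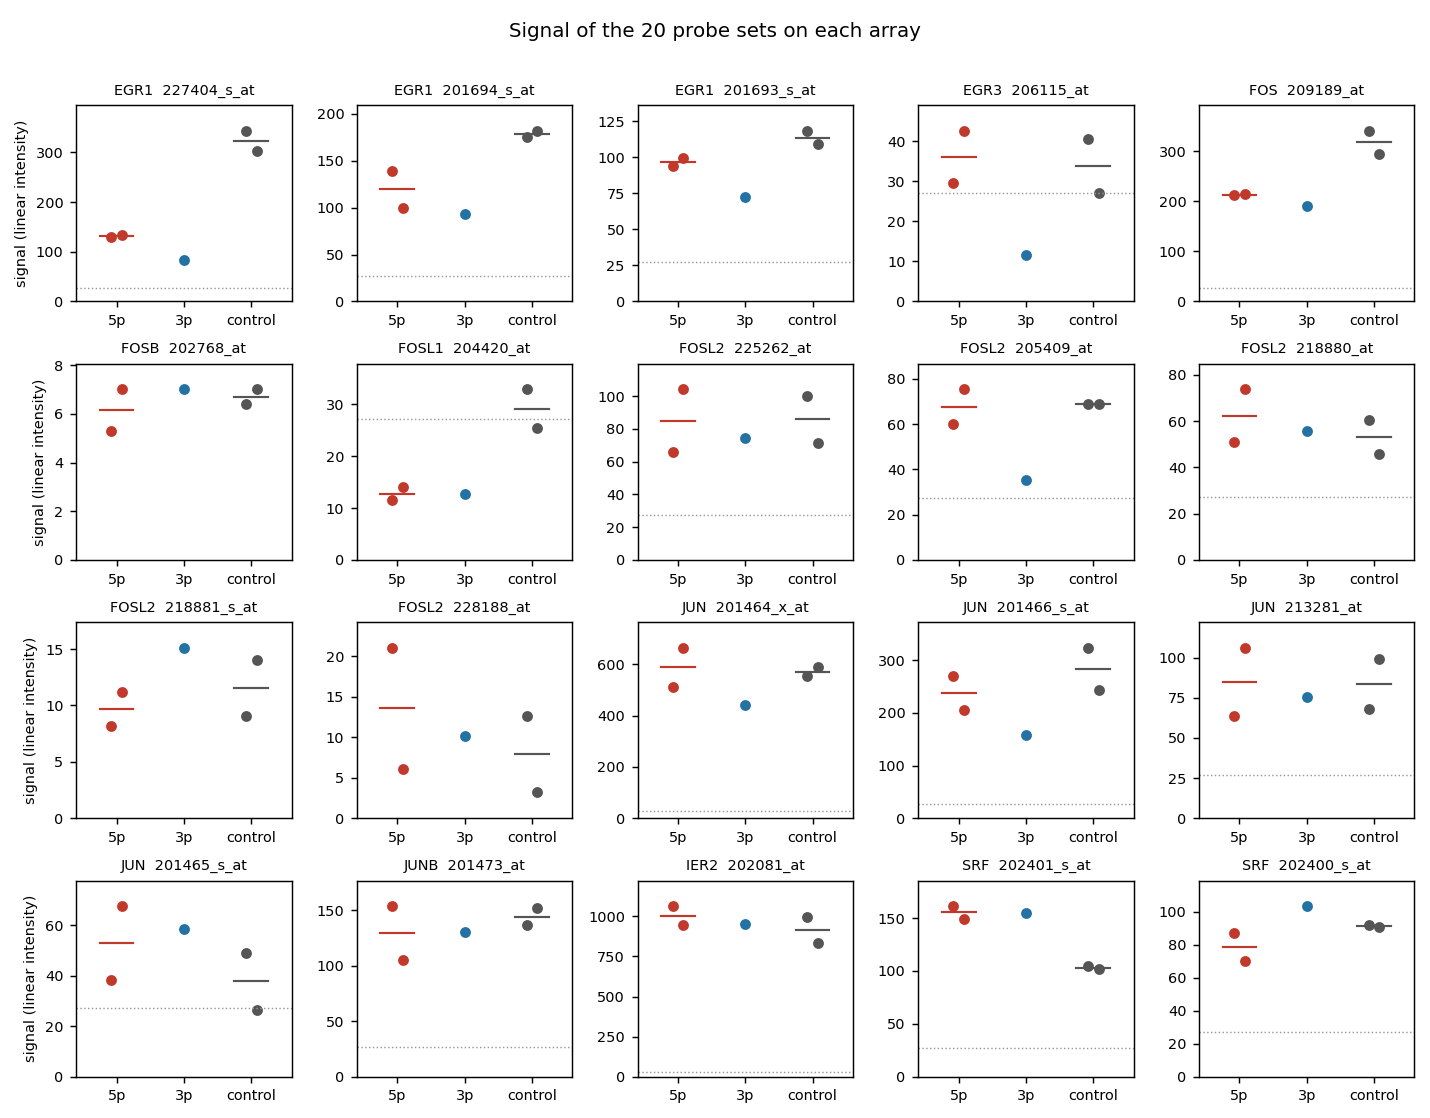
Linear signal of each of the 20 probe sets on each array (points), by mimic, with group means as bars where a group has 2 arrays and the filter level of 27.2 as a dotted line. The 3 EGR1 panels and the FOS panel have both control arrays on top, and SRF 202401_s_at has both control arrays at the bottom.

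FOS, the founding member of the AP-1 family, was lower with both mimics in its only probe set. Its signal was 212.4 and 213.8 with miR-483-5p, 190.3 with miR-483-3p and 340.5 and 294.9 on control arrays. All 3 mimic arrays lay below both control arrays. The log2 difference was -0.51 (SE 0.16, limma adjusted p = 0.538) for miR-483-5p and -0.65 (SE 0.19, adjusted p = 0.779) for miR-483-3p. Without the first control array these were -0.42 and -0.56, and without the second -0.60 and -0.74.

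FOSL1, a FOS-related antigen without a strong activation domain of its own, was split between mimics and control as FOS was, at low signal. It had 11.5 and 14.0 with miR-483-5p, 12.8 with miR-483-3p and 32.9 and 25.4 on control arrays. Every mimic array lay below both control arrays, but only the first control array lay above the filter level and the probe set was not tested in the main fit. In the fit without the filter the log2 difference was -0.45 for each mimic, with adjusted p = 0.621 for miR-483-5p and 0.781 for miR-483-3p. FOSB, which acts in the nervous system and bone, lay between 5.3 and 7.0 on all 5 arrays, with no difference to read at that level.

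FOSL2 has 5 probe sets, and they gave no common direction. Its brightest, 225262_at, had 66.0 and 104.0 with miR-483-5p, 74.4 with miR-483-3p and 100.2 and 71.2 on control arrays, so the groups overlapped. Probe set 205409_at had 60.2 and 75.3, 35.4, and 68.9 and 68.9 in the same order. There the miR-483-3p array lay lowest, with a log2 difference of -0.58 (SE 0.20, adjusted p = 0.823) from the control, against -0.13 and 0.05 in the other 2 tested probe sets. It was -0.94 with a pseudocount of 1 and -0.32 with 100. For miR-483-5p the 3 differences were between -0.02 and 0.14, and the sign of that of 205409_at and of 225262_at turned with median centring and with quantile normalization. The remaining 2 probe sets lay under the filter, between 3.3 and 21.0.

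JUN, the main partner of FOS in AP-1, has 4 probe sets that disagreed. The brightest, 201464_x_at, whose suffix marks possible cross-hybridization, had 512.2 and 663.5 with miR-483-5p, 440.2 with miR-483-3p and 555.4 and 587.5 on control arrays. Probe set 201466_s_at had 270.9 and 206.0, 157.3, and 323.3 and 243.1. In both, the miR-483-3p array was the lowest of the 5, with log2 differences from the control of -0.35 (SE 0.22) and -0.72 (SE 0.25, adjusted p = 0.826). The dimmer 213281_at differed by -0.09 and 201465_s_at by 0.39 (SE 0.29). For miR-483-5p the 4 differences ran from -0.22 to 0.28, each with an interval that includes 0.

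JUNB and IER2 showed small differences. JUNB, a JUN relative that weakens JUN activity at many promoters, had 153.7 and 105.6 with miR-483-5p, 130.2 with miR-483-3p and 136.7 and 152.1 on control arrays. Its log2 difference was -0.14 for miR-483-5p (95% interval -0.60 to 0.32) and -0.12 for miR-483-3p (-0.68 to 0.44). IER2, a small nuclear protein induced with FOS, had 1062.2 and 945.0, 950.1, and 993.1 and 835.1. Its differences were 0.13 (-0.27 to 0.54) and 0.06 (-0.43 to 0.55). With miR-483-5p both genes overlapped the control, and with miR-483-3p the JUNB array lay just below both control arrays while IER2 lay between them.

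SRF was higher with both mimics in its brighter probe set, whereas in the other the mimics lay on either side of the control. Probe set 202401_s_at had 161.1 and 149.5 with miR-483-5p, 155.1 with miR-483-3p and 104.3 and 101.8 on control arrays. The mimic arrays all lay above the control arrays and close to one another. The log2 difference was 0.47 for each mimic (SE 0.15 for miR-483-5p and 0.18 for miR-483-3p), with adjusted p = 0.547 and 0.858. Probe set 202400_s_at had 87.1 and 70.2 with miR-483-5p, 103.3 with miR-483-3p and 91.7 and 90.6 on control arrays. Here miR-483-5p lay below the control, with a difference of -0.16 (95% interval -0.54 to 0.22), and miR-483-3p above it, with 0.14 (-0.33 to 0.60). The mean of the 2 probe sets differed by 0.16 for miR-483-5p and 0.30 for miR-483-3p. The direction of SRF with miR-483-5p thus depends on the probe set read.

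**Figure D2:**
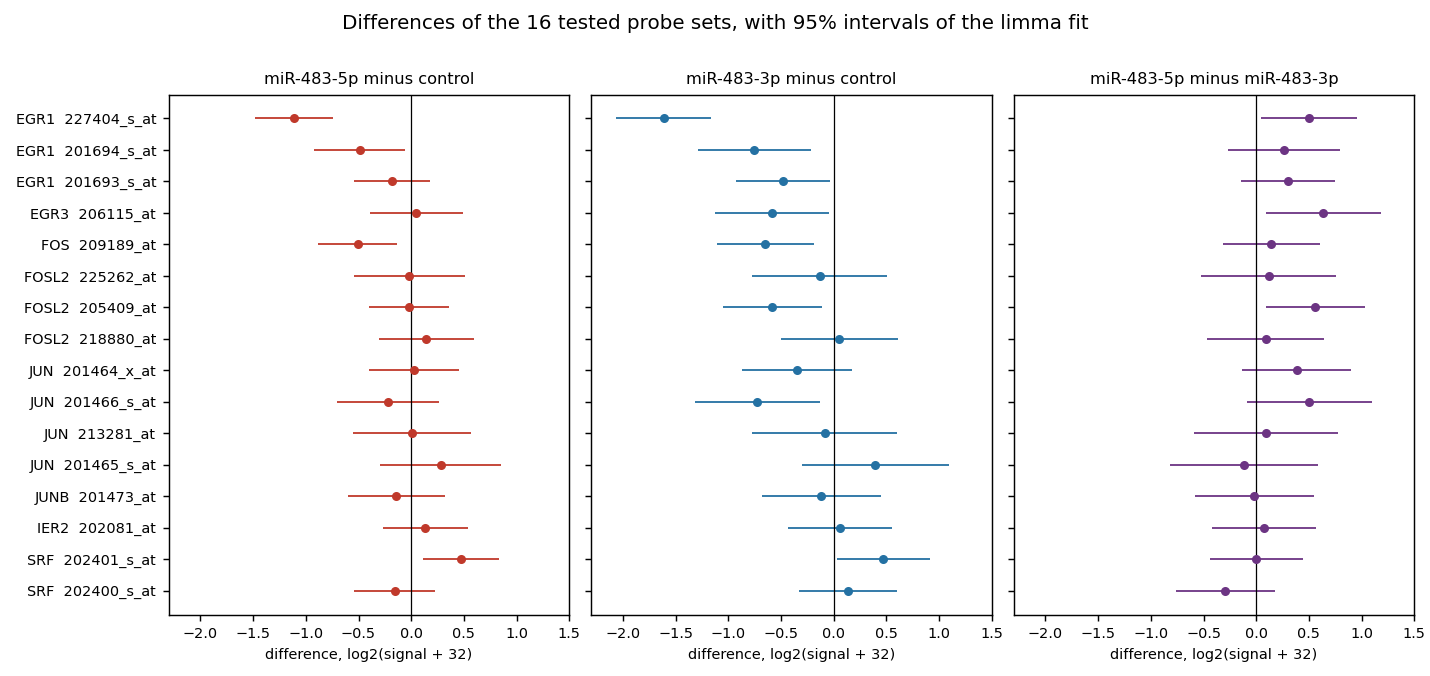
Differences on the log2(signal + 32) scale (points) with 95% intervals of the limma fit for the 16 tested probe sets, one panel per comparison. The intervals of EGR1 227404_s_at, EGR1 201694_s_at and FOS lie below 0 and that of SRF 202401_s_at above 0 for both mimics against the control. For miR-483-3p the intervals of EGR1 201693_s_at, EGR3, FOSL2 205409_at and JUN 201466_s_at also lie below 0.

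None of the 16 tested probe sets, from 8 of the 10 genes, passed limma's test in any of the 3 comparisons, where the share called among all 32768 probe sets was 0% as well. At an unadjusted p under 0.05, miR-483-5p against the control gave 3 lower member probe sets, 2 of EGR1 and 1 of FOS, and 1 higher, of SRF. The background of all tested probe sets was 4.27% lower and 4.06% higher. After median centring of the arrays, the 1331 higher and 1399 lower probe sets behind those shares became 1577 and 1073. For miR-483-3p against the control, 7 were lower and 1 higher, against a background of 3.58% lower and 2.01% higher. Those 7 were the 3 of EGR1 and 1 each of EGR3, FOS, FOSL2 and JUN, and the higher one was of SRF. Several of these counts come from probe sets of the same gene.

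Over all 20 probe sets, whether tested or not, both miR-483-5p arrays lay below both control arrays in 6 and above them in 1. The background shares are 20.5% and 16.1% of 54613 probe sets. The miR-483-3p array lay below both control arrays in 10 and above both in 4, against 34.4% and 32.9%. The median log2 difference over the 20 was -0.02 for miR-483-5p and -0.13 for miR-483-3p, against -0.02 and -0.01 over all probe sets. For miR-483-5p the middle of the group thus lay at the middle of the array, and EGR1, FOS, FOSL1 and the brighter SRF probe set stood away from it.

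Set directly against each other, the 2 arms gave their lowest p-values among the members at FOSL2, EGR3 and EGR1. Both miR-483-5p arrays lay above the miR-483-3p array in 8 of 20 probe sets and below it in 2, where all probe sets gave 31.3% and 34.7%. EGR3 was higher with miR-483-5p by 0.64 (SE 0.23), FOSL2 205409_at by 0.56 (SE 0.20) and EGR1 227404_s_at by 0.50 (SE 0.19) on the log2 scale. Their adjusted p-values were 0.841, 0.832 and 0.857, and these 3 were the only members at an unadjusted p under 0.05, all higher, against 3.27% of all probe sets higher and 2.44% lower. JUN 201466_s_at differed by 0.50 (SE 0.25), as much as EGR1 but with a wider error. FOS differed between the arms by 0.14 (95% interval -0.32 to 0.60) and SRF 202401_s_at by less than 0.01 (-0.44 to 0.44). All of these values rest on 1 miR-483-3p array, which limma assumes to vary like the paired groups.

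The profile of EGR1 over the 5 arrays was most like that of CYP2B6, a cytochrome P450 gene, MGC15885 and NAV2, a gene of neuronal guidance. Likeness was the Euclidean distance between log2 values centred on the control mean, over 5 arrays and 1 probe set per gene, and was 0.55, 0.74 and 0.74. CYP2B6 had 16.3 and 29.1 with miR-483-5p, 21.5 with miR-483-3p and 83.5 and 87.0 on control arrays. Its values with the mimics lay around or under the filter level, as did those of NAV2, at 15.6 and 16.2, 16.8, and 56.3 and 67.4. MGC15885 had 40.5 and 69.0, 25.8, and 98.8 and 126.7.

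The cofactors through which SRF and EGR1 act showed no member at an unadjusted p under 0.05 in any comparison, out of 8 measured. Over all tested probe sets the shares were 4.06% higher and 4.27% lower with miR-483-5p and 2.01% and 3.58% with miR-483-3p. Between the arms they were 3.27% and 2.44%. The ternary complex factor ELK1 had 254.1 and 331.0 with miR-483-5p, 354.4 with miR-483-3p and 343.2 and 349.2 on control arrays. ELK3 had 1373.9 and 910.1, 1066.2, and 1324.8 and 837.7, a pattern in which first arrays exceeded repeats in both groups. ELK4 had 581.5 and 554.3, 445.9, and 517.1 and 398.9, with a log2 difference of 0.30 for miR-483-5p, but its 5 other tested probe sets gave -0.31 to 0.12. The actin-responsive factors MRTFA and MRTFB differed by 0.17 and 0.15 for miR-483-5p and by 0.02 and 0.01 for miR-483-3p. Dimmer tested probe sets gave -0.12 and -0.55 for MRTFA and -0.03 for MRTFB with miR-483-5p, and 0.34 and -0.55 for MRTFA and -0.12 for MRTFB with miR-483-3p. The EGR corepressors NAB1 and NAB2 differed by 0.18 and -0.09 for miR-483-5p and by 0.15 and 0.11 for miR-483-3p. With miR-483-5p the 3 other tested probe sets of NAB1 gave -0.35, -0.01 and -0.14, and that of NAB2 gave 0.16. With miR-483-3p those of NAB1 gave -0.25, 0.13 and 0.05, and that of NAB2 gave 0.25. The list median was 0.12 for miR-483-5p and 0.03 for miR-483-3p, against -0.02 and -0.01 over all tested probe sets.

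Among dimer partners and relatives of FOS and JUN, 10 of 11 were measured, and MAFF alone, a small MAF protein that lacks an activation domain, reached an unadjusted p under 0.05. It had 93.5 and 123.5 with miR-483-5p, 58.5 with miR-483-3p and 120.8 and 101.2 on control arrays. The log2 difference from the control was -0.66 for miR-483-3p and -0.03 for miR-483-5p, and a second, dimmer probe set gave -0.16 for miR-483-3p. Between the arms the difference of MAFF was 0.63, and 0.13 in the dimmer probe set. JUND, the JUN relative least tied to induction, had 2493.9 and 1938.6, 2365.3, and 2224.9 and 2139.3. The stress-induced ATF3 had 180.2 and 194.7, 153.2, and 217.3 and 150.7. In these probe sets both genes overlapped between miR-483-5p and the control, and JUND with miR-483-3p lay above both control arrays. Dimmer tested probe sets of ATF3 did not overlap there and went opposite ways, by 0.18 and -0.22 for miR-483-5p.

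Of 31 other immediate early and early response genes, 26 were tested, none passed over all probe sets, and single genes lay apart in both directions. At an unadjusted p under 0.05, 5 were higher and 2 lower with miR-483-5p, and 1 was higher and 3 lower with miR-483-3p. Over all tested probe sets the shares were 4.06% higher and 4.27% lower with miR-483-5p, and 2.01% higher and 3.58% lower with miR-483-3p. KLF2, a Krüppel-like factor, and RHOB, an early response GTPase, were lower with both mimics. RHOB had 808.0 and 867.1 with miR-483-5p, 885.4 with miR-483-3p and 1656.4 and 1607.7 on control arrays, differences of -0.94 (SE 0.15) and -0.86 (SE 0.18). Its second tested probe set gave -1.26 and -1.08. KLF2 differed by -1.64 and -1.27 in one probe set and by 0.08 and 0.19 in a dimmer one.

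The genes in that class higher with miR-483-5p than on control arrays at an unadjusted p under 0.05 were PLK2, CCN1, CCN2, CSRNP1 and IER5. All but IER5 also lay above the miR-483-3p array on both arrays. At higher p-values MCL1, PPP1R15A, GADD45B, PLK3 and SGK1 likewise lay above the control and miR-483-3p arrays on both miR-483-5p arrays. The kinase gene PLK2 had a signal of 211.0 and 162.1 with miR-483-5p, 82.2 with miR-483-3p and 89.0 and 86.1 on control arrays. CCN1, a matricellular gene and a classical SRF target, had 885.4 and 868.0, 478.9, and 543.1 and 561.2. PLK2 was higher with miR-483-5p than with miR-483-3p by 0.93 (SE 0.21) and CCN1 by 0.83 (SE 0.18), each with limma adjusted p = 0.785. CCN2, a relative of CCN1, had 668.2 and 598.4, 394.2, and 399.2 and 450.2, and CSRNP1 had 85.4 and 63.1, 54.8, and 43.0 and 51.1. IER5, a regulator of the heat shock response, had 641.6 and 539.1, 544.1, and 354.4 and 378.4, and was thus above the control on every mimic array. EGR4 had 79.8 and 77.4, 92.7, and 67.9 and 116.1, and MYC had 2321.1 and 2467.0, 2456.5, and 2672.9 and 2832.9. DUSP1, the phosphatase that ends ERK and p38 signals, had 192.7 and 177.1, 202.9, and 221.1 and 184.2, although a dimmer probe set differed by -0.71 for miR-483-5p. EGR2 was not analysed here. SOCS3 differed by 0.22 for miR-483-3p in its brightest probe set, but by -0.25 in a dimmer tested probe set. ZFP36 differed by -0.62 (SE 0.36) between miR-483-5p and miR-483-3p. It had 19.1 and 18 with miR-483-5p, 45.6 with miR-483-3p and 63.9 and 18.4 on control arrays. Its signal on both miR-483-5p arrays and on the second control array lay under the filter level.

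**Figure D3:**
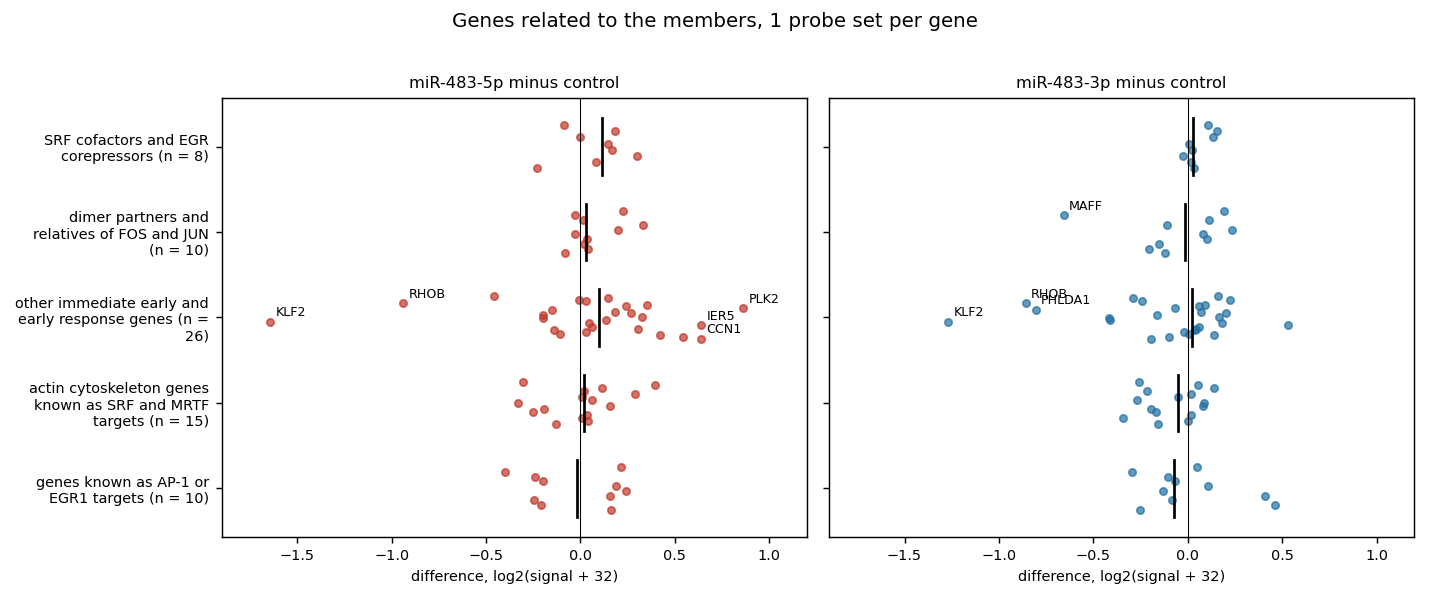
Difference from the control on the log2(signal + 32) scale for each tested gene of the 5 related lists (points, 1 probe set per gene), with the list median as a vertical bar. Medians lie between -0.08 and 0.12, and genes beyond 0.6 in either direction are named.

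Actin cytoskeleton genes that SRF and its myocardin-related partners are known to drive had medians near that of the array. Of 19 on the list 15 were tested, and only vinculin, VCL, reached an unadjusted p under 0.05. VCL was higher with miR-483-5p, as were 4.06% of all tested probe sets at that level. It had 1282.9 and 1351.7 with miR-483-5p, 1030.9 with miR-483-3p and 1012.3 and 972.5 on control arrays, a log2 difference of 0.40 (SE 0.15) for miR-483-5p, with -0.57 in a dim second probe set. Myosin light chain MYL9 differed by -0.33 for miR-483-5p and 0.09 for miR-483-3p, and the calponin CNN2 by -0.25 and -0.17. The MYL9 probe set was dim, between 36.6 and 60.1, and another, under the filter, lay between 2.6 and 5.3. ACTG2 and TAGLN differed by -0.34 and -0.27 for miR-483-3p, and TPM4 by 0.14, each in its brightest probe set. With miR-483-3p the dimmer tested probe sets gave -0.16 and 0.10 for TAGLN and 0.80, 0.07 and 0.03 for TPM4. The list median was 0.02 for miR-483-5p and -0.05 for miR-483-3p.

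Genes known as targets of AP-1 or EGR1 showed no common direction. Of 14 on the list 10 were tested, and only TIMP1, a metalloproteinase inhibitor, reached an unadjusted p under 0.05. TIMP1 was lower with miR-483-5p, as were 4.27% of all tested probe sets at that level. It had 1302.6 and 1093.8 with miR-483-5p, 1282.2 with miR-483-3p and 1643.0 and 1525.8 on control arrays. Its log2 difference was -0.40 for miR-483-5p and -0.30 for miR-483-3p. The gelatinase MMP9 differed by 0.16 and 0.41, the urokinase receptor PLAUR by 0.19 and 0.11 and the haem oxygenase HMOX1 by -0.25 and -0.08 for the 2 mimics. Between the arms PLAU differed by 0.37 (SE 0.28) and CD44 by 0.41 (SE 0.24). CD44 was dim, at 35.2 and 45.1 with miR-483-5p and 22.1 with miR-483-3p, the last under the filter level. Its other tested probe sets gave 0.32 and 0.45, and those under the filter ran from -0.77 to 0.56. Another tested probe set of PLAU gave 0.79. CDKN1A had 66.1 and 11.1 with miR-483-5p and 71.5 with miR-483-3p, so its difference of -0.67 (SE 0.51) rests on the second miR-483-5p array. The list medians were -0.02 for miR-483-5p and -0.08 for miR-483-3p, against -0.02 and -0.01 over all tested probe sets.

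**Figure D4:**
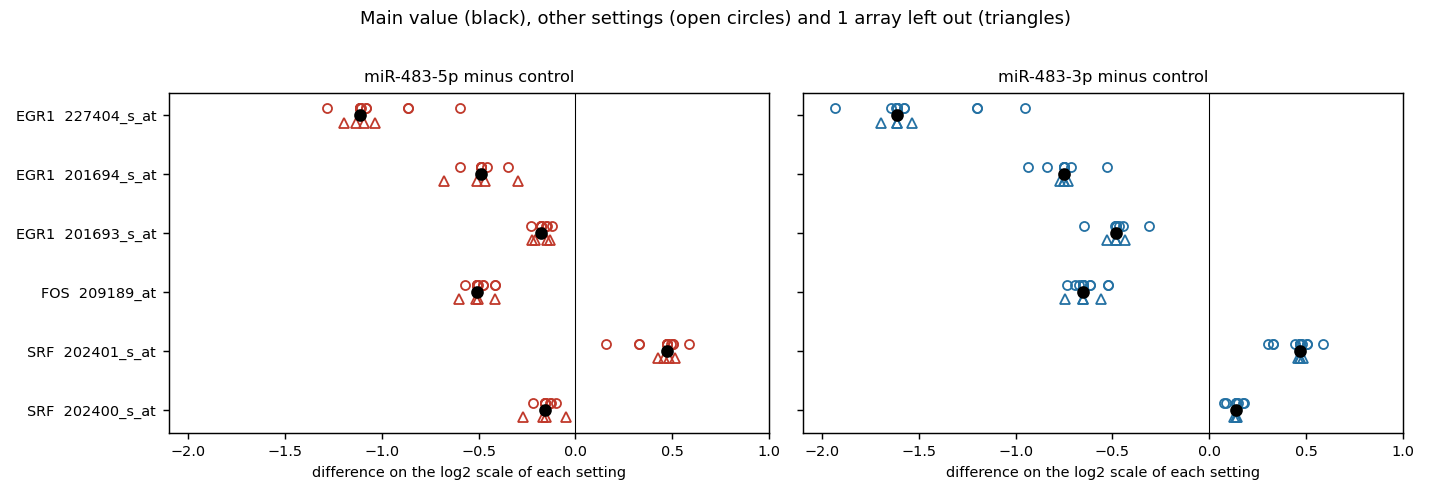
Differences from the control for the probe sets of EGR1, FOS and SRF in the main fit (black points), under the other settings (open circles, including the average over probe sets of a gene, drawn on its brightest one) and with 1 array left out (triangles). Every value of EGR1 and FOS lies below 0, and the 2 SRF probe sets lie on opposite sides of 0 for miR-483-5p.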

How the data were processed

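Per the labels' protocols, the 5 samples were run on HG-U133 Plus 2 arrays by Affymetrix. The deposited values are linear intensity, 1 per probe set and array. In every deposited column the mean without the top and bottom 2% is 150.0, as after scaling to one target. Per the submitters' processing notes the tools included GCOS and Partek. How signals were summarized is not stated there. No detection calls were used, so whether a dim probe set lies above background is unknown.

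The platform annotation gave 41091 probe sets 1 gene symbol, 1801 several and 11721 none, and 41037 matched RefSeq names (GRCh38.p14) by gene identifier. The 62 control probe sets were left out. Probe sets whose mean log2(signal + 32) lay under the 40th percentile, a signal of 27.2, were not tested, which left 32768. The fit used limma 3.58.1 (R 4.3.3), 1 mean for each of the 3 groups, two-sided moderated tests, Benjamini-Hochberg adjustment over all 32768 and a threshold of 0.05. The fit has 2 residual degrees of freedom, and 4.66 from the variance prior. The fit was tested on simulated data with independent noise on every array. That test cannot show whether the repeats are technical or how much a miR-483-3p repeat would vary. A list gene is represented by its probe set with the highest mean.

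Always named were the members and the main cofactors and relatives, and from the 3 longer lists the 2 genes with the lowest p in each direction whose arrays did not overlap. The members and lists were chosen with earlier results of these data known. Figures were drawn with matplotlib 3.10.9. Array number and dim signals limit the precision.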

Additional observations from a re-analysis of the deposited data

How the results depend on the processing

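Of the alternatives, 15 were chosen first: pseudocounts of 1 and 100, median centring, quantile normalization, no filter, a filter at the 60th percentile, 1 probe set or the mean of the probe sets per gene, a variance prior that follows intensity, a replicate block, an adjusted p under 0.1 as threshold, and omission of any 1 of the 4 miR-483-5p and control arrays. Under each of them 0 probe sets, members included, were called in each of the 3 comparisons, by limma, whereas 2730, 1834 and 1872 probe sets had an unadjusted p under 0.05 in the main fit. In 3 alternatives added after seeing the data, 1 probe set per gene was combined with median centring, a pseudocount of 100 or the intensity trend. These called 21, 33 and 40 genes for miR-483-5p against the control and 2, 1 and 1 for miR-483-3p against the control, in each case with 1 member, EGR1, at -1.08, -0.87 and -1.11 for miR-483-5p and -1.58, -1.20 and -1.61 for miR-483-3p. Between the arms they called 6, 0 and 0, with no member. They test fewer features, and the rest of the cause was not tested. The sign of the difference was the same in the main fit and all its alternatives for 9 of 16 member probe sets with miR-483-5p, 12 of 16 with miR-483-3p and 9 of 16 between the arms. EGR1, FOS and SRF kept theirs against the control in every probe set. The differences that turned were at most 0.15 in the main fit. Between the arms the mean of the 2 SRF probe sets differed by -0.15, where the brighter one alone differed by less than 0.01. First arrays and repeats carry no pairing in the labels, and over 32768 probe sets their deviations from the group means correlated at 0.17. The replicate block left 0 calls and gave -1.11 for EGR1 227404_s_at with miR-483-5p and -1.64 with miR-483-3p.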
